A study of Homo sapiens with 6 samples.

Results

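Cyclins and cyclin-dependent kinases (CDKs) drive cells through the division cycle, and their genes were examined here in maps of open chromatin. The genes were CCND1, CCND2, CCND3, CCNE1, CCNE2, CCNA2, CCNB1, CDK4, CDK6 and CDKN1A, chosen by name and found in the GENCODE annotation on GRCh37 (hg19), so 10 of 20090 protein-coding genes were followed. Open chromatin was mapped by ATAC-seq, in which a transposase cuts accessible DNA and inserts adapters, in MDA-MB-231 cells, a long-established line of human triple-negative breast cancer. Parental cells gave 3 libraries. A derived line, SAP30-KO1, gave 3 more, and in it CRISPR/Cas9 removed SAP30, a subunit of the SIN3 corepressor complex. SAP30-KO1 combines several selected knockout cells. Per the study's methods, knockout lines received a guide RNA vector, were treated with puromycin and were grown from selected single cells. The comparison here is with parental cells, not a scrambled control, so the groups differ in these steps as well as in SAP30. The labels give no other genotype or treatment for either group. Whether the libraries of a group came from separate cultures was not stated, so p-values measure only the spread between these libraries, which may be technical.

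In quiescent cells RB and its relatives hold E2F factors in check. D-type cyclins (CCND1 to CCND3), induced by growth signals, activate CDK4 and CDK6, which phosphorylate RB, and E2F then switches on genes that include the E-type cyclins. Cyclin E with CDK2 starts DNA replication, cyclin A2 acts through S phase and G2, and cyclin B1 with CDK1 brings on mitosis. CDKN1A encodes p21, an inhibitor of these kinases and a classical p53 target. In breast cancer the cyclin D and CDK4/6 step is a drug target, and CCND1 lies in a segment of 11q that is often amplified.

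The files give summits, the highest point of each peak, with a score that is -log10 of the q value, in a separate list for each library. Lists held 29762 to 40650 summits, the shortest and the longest both from SAP30-KO1 (replicates 1 and 2). No read counts were given, so depth is unknown and a missing summit means no peak past the threshold, not closed chromatin. Scores were converted to percentile ranks within each library, from 0 to 100, with 0 where there was no summit. A promoter was the sequence within 1 kb of any annotated start site, and the best summit there was taken. Values below are in the order of replicates 1, 2 and 3. For the label of the line, VIM, CD44 and MSN (mesenchymal markers) had promoter summits in all 6 libraries and AXL in 3. ESR1 and PGR (hormone receptors) each had one in 1 library, ERBB2 in 4, GATA3 and EPCAM (epithelial) in 5, and PTPRC (blood) in none. SAP30 had a promoter summit in all 6 libraries, which does not test the knockout, as coding edits leave a promoter in place.

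The sequences just upstream of the canonical start sites differ in a way that can be read directly. Shown are 120 bases (GRCh37, gene strand, 5′ to 3′) of the genes with the highest (CCNA2, CCNB1) and lowest (CCNE1) mean ranks over the libraries among genes with a summit in all 6 libraries, and of CCND1, which had none. Capitals mark CCAAT boxes (CCAAT, or ATTGG on the other strand) and the cyclic AMP response element TGACGTCA in CCNA2 and CCNB1, and GC boxes (GGGCGG, or CCGCCC) in CCNE1 and CCND1.
CCNA2, chr4:122745039-122745158, minus strand: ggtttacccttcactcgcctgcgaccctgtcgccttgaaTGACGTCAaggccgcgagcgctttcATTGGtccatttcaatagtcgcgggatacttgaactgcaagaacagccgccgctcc
CCNB1, chr5:68462842-68462961, plus strand: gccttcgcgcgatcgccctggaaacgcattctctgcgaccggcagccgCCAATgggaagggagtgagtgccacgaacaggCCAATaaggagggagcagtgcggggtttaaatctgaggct
CCNE1, chr19:30302778-30302897, plus strand: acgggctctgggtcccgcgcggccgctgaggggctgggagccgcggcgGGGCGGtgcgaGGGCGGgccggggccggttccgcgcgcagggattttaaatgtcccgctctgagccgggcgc
CCND1, chr11:69455804-69455923, plus strand: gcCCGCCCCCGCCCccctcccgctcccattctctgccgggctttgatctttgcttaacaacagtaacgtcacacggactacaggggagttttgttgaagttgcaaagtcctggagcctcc
Annotated exons were left out, so the CCNB1 stretch ends at 68462961, short of its canonical start at 68462977. The other stretches abut their starts. CCNA2 and CCNB1 carry CCAAT boxes, the site of the factor NF-Y, and CCNB1 has 2 of them. CCNE1 and CCND1 each show 2 GC boxes, the site of SP1, and no CCAAT box. GC boxes are not particular to these 2 genes. In the wider window counted below CCNA2 has 3 and CCNB1 has 1, against 2 in CCND1 and 7 in CCNE1.

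Among the D-type cyclins only CCND3 had promoter summits. CCND1 (chr11:69455924-69469242, plus strand, 6 start sites) and CCND2 (chr12:4378937-4414519, plus strand, 6 start sites) were at 0 in all 6 libraries. Of all protein-coding genes 37.5% likewise had no promoter summit, and 34.7% had one in every library. CCND3 (chr6:41902672-42018095, minus strand, 18 start sites) ranked at 73.9, 58.8 and 77.6 in parental cells and at 61.2, 92.1 and 81.3 in SAP30-KO1. The ranges overlapped, and the lowest SAP30-KO1 value lay below the highest 2 parental values. The means were 70.1 ± 9.98 and 78.2 ± 15.7 (SD, n = 3), a difference of 8.09 that was smaller than the spread of the replicates (two-sided exact permutation test, p = 0.4, where 0.1 is the smallest p that 3 against 3 can give). Without SAP30-KO1 replicate 1 it was 16.6 and the ranges no longer overlapped, without SAP30-KO1 replicate 2 it was 1.14 and without Parental replicate 2 it was 2.43.

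**Figure D1:**
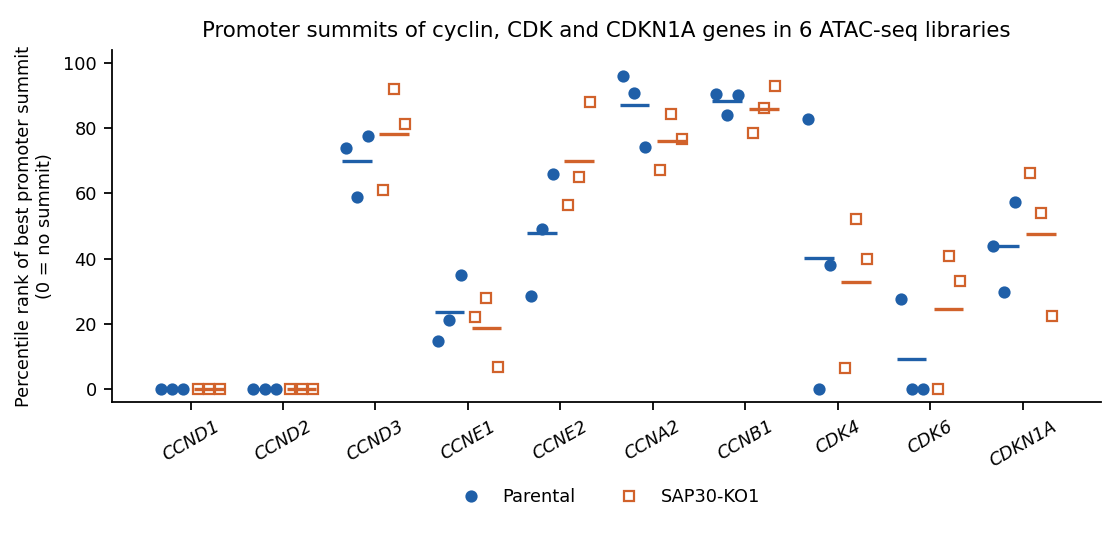
Percentile rank of the best promoter summit (vertical axis, 0 for no summit) of each gene, with 1 point per library (filled circles, Parental; open squares, SAP30-KO1) and bars at the group means. CCNA2 and CCNB1 have the highest means over the 6 libraries, CCND1 and CCND2 stay at 0, CDK4 and CDK6 spread down to 0, and for each gene with a summit the groups overlap.

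The E-type cyclins had a promoter summit in every library, at low ranks for CCNE1 and over a wide range for CCNE2. CCNE1 (chr19:30302898-30315219, plus strand) ranked at 14.7, 21.0 and 35.0 in parental cells and at 22.1, 27.8 and 6.62 in SAP30-KO1. All of these values lay in the lower part of their lists, with scores of 3.02 to 4.77 against library medians of 5.58 to 6.56. The means of 23.6 ± 10.4 and 18.8 ± 10.96 (SD, n = 3) differed by -4.73 (exact permutation test, p = 0.7). CCNE2 (chr8:95891998-95908906, minus strand) ranked at 28.5, 49.2 and 66.1 in parental cells and at 56.5, 65.2 and 88.0 in SAP30-KO1. Parental replicate 3 exceeded 2 of the SAP30-KO1 libraries, so the groups overlapped. The difference of 21.96, between means of 47.9 ± 18.8 and 69.9 ± 16.3 (SD, n = 3), was the largest among the cyclin and CDK genes and exceeded the SD of either group, but the ranges overlapped (exact permutation test, p = 0.3). Without Parental replicate 3 it was 31.0 with the ranges apart, without Parental replicate 1 it was 12.3 and without SAP30-KO1 replicate 3 it was 12.9. The CCNE2 summits lay 371 to 744 bases upstream of its canonical start, at a site that is also within 1 kb of a start of NDUFAF6, so its rank cannot be told apart from that of its neighbour, and with a promoter window of 500 bp the difference was 8.40.

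CCNA2 and CCNB1, the S phase and mitotic cyclins, had the highest mean promoter ranks of these genes over the 6 libraries, while in SAP30-KO1 alone the mean of CCND3 (78.2) lay above that of CCNA2 (76.0). CCNA2 (chr4:122737599-122745038, minus strand, 1 start site) ranked at 96.2, 90.9 and 74.4 in parental cells and at 67.2, 84.2 and 76.7 in SAP30-KO1. The top 2 values were parental, but Parental replicate 3 lay below 2 of the SAP30-KO1 libraries. Its means were 87.1 ± 11.4 and 76.0 ± 8.55 (SD, n = 3), a difference of -11.1 with overlapping ranges (exact permutation test, p = 0.3). It was -17.5 with the ranges apart without Parental replicate 3, -6.61 without Parental replicate 1 and -6.69 without SAP30-KO1 replicate 1. CCNB1 (chr5:68462962-68474072, plus strand) ranked at 90.5, 84.2 and 90.3 in parental cells and at 78.7, 86.1 and 92.8 in SAP30-KO1. Its highest and lowest values were both from SAP30-KO1. The means were 88.3 ± 3.59 and 85.9 ± 7.09 (SD, n = 3), a difference of -2.44 (exact permutation test, p = 0.7), and 92.1% of protein-coding genes had a lower mean rank over the 6 libraries. The same share was 88.6% for CCNA2, 84.2% for CCND3, 75.4% for CCNE2 and 55.2% for CCNE1. Summits lay close to the start of CCNA2, from -79 to 129 bases upstream of it (negative, downstream), and from -98 to 242 bases upstream of that of CCNB1.

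The kinase genes were less regular than the cyclins. CDK4 (chr12:58141510-58149796, minus strand, 14 start sites) ranked at 82.9, 0 and 38.0 in parental cells and at 6.50, 52.1 and 39.8 in SAP30-KO1. Parental replicates 1 and 2 were the highest and the lowest of the 6 libraries, so the parental spread covered the whole SAP30-KO1 range. The means were 40.3 ± 41.5 and 32.8 ± 23.6 (SD, n = 3), with a difference of -7.48 (exact permutation test, p = 1) that turned to 13.8 without Parental replicate 1 and to 5.68 without SAP30-KO1 replicate 1. CDK6 (chr7:92234235-92465887, minus strand) ranked at 27.7, 0 and 0 in parental cells and at 0, 40.8 and 33.2 in SAP30-KO1. Its summits were found in the 3 longest of the 6 lists, about 2.57 kb inside the gene near an alternative start, while the canonical start had no summit within 1 kb in any library. The difference of 15.4 was within the spread (exact permutation test, p = 0.4), was 27.8 with the ranges apart without SAP30-KO1 replicate 1, was 24.7 without Parental replicate 1, and fell to 7.36 without SAP30-KO1 replicate 2. Of 958 genes with a promoter summit in exactly 3 libraries, 124 (12.9%) had it in those same 3 lists, and the part of list length in the CDK6 values was not tested.

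CDKN1A (chr6:36644237-36655114, plus strand), the inhibitor, ranked at 44.02, 29.7 and 57.5 in parental cells and at 66.3, 53.9 and 22.4 in SAP30-KO1. SAP30-KO1 held both the highest and the lowest value. The means of 43.7 ± 13.9 and 47.5 ± 22.6 (SD, n = 3) differed by 3.80 (exact permutation test, p = 0.8), and the sign turned without Parental replicate 2 (-3.23) or SAP30-KO1 replicate 1 (-5.58).

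Over the 8 genes with a promoter summit in any library, 4 had a higher and 4 a lower mean rank in SAP30-KO1, and in 0 of 8 were the groups apart, that is, without overlap between their ranges. Of the 12560 protein-coding genes with a promoter summit, 4.58% were lower with groups apart and 6.01% were higher with groups apart, so a count of 0 among 8 lies near that background. The median difference was 0.680 over the 8 genes and 0.671 over all tested genes, whose 5th and 95th percentiles were -25.3 and 27.4. The adjusted p was 1 for each of the 8 genes, and the lowest over all tested genes was 0.944 (exact permutation test with Benjamini-Hochberg adjustment). The replicate spread was wide on this scale. The SD within groups had a median of 12.4 over genes with a summit in all 6 libraries, and was 5.62 to 18.8 for the 6 members of that class (CCND3, CCNE1, CCNE2, CCNA2, CCNB1 and CDKN1A). When each gene was ranked among the summits of its own chromosome arm, the split was again 4 higher and 4 lower with 0 apart.

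The base composition of the start sites was then compared, because open promoters in these libraries were mostly GC-rich. Of the genes in the lowest class of GC content (in the window of 250 bp on each side of the canonical start, for 19812 starts in 10 classes of equal size), 19.8% had a promoter summit in any library, against 76.6% in class 6 and 71.2% in class 10, the richest. CCND1 (66.7% GC) falls in class 6, together with CCNA2 (65.1%), CCNB1 (66.1%) and CDK4 (66.5%). CCND1 thus differed in summits from genes of nearly equal composition, and CCND2 (62.5% GC) belongs to class 5, in which 71.7% of genes had a summit. CCNE1 was the richest at 81.4% GC, in class 10, where 27.9% of genes had summits in all 6 libraries. CDK6 (75.2%), CCND3 (74.9%), CDKN1A (72.5%) and CCNE2 (70.3%) lay between.

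**Figure D2:**
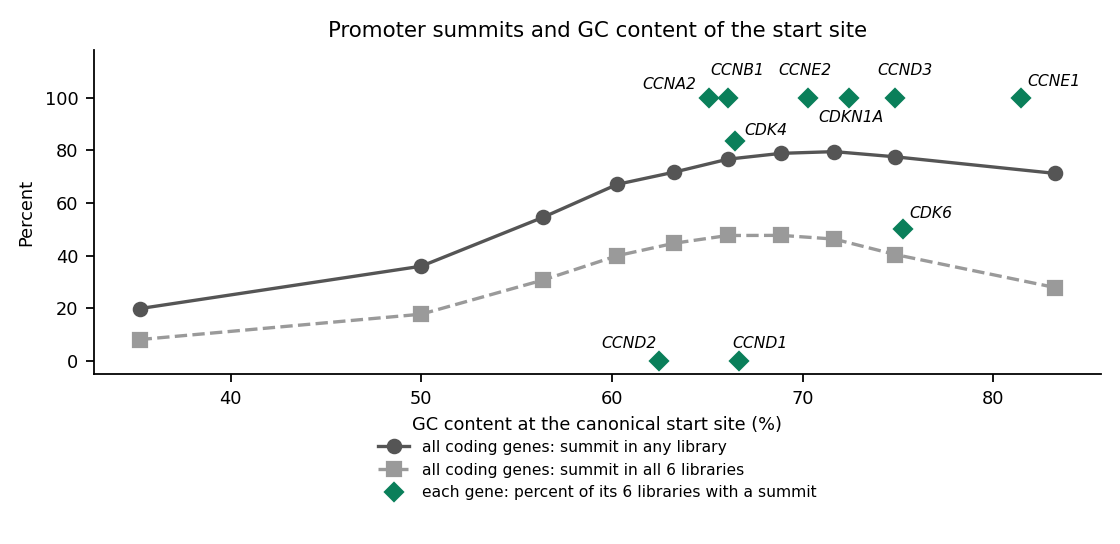
GC content at the canonical start (horizontal axis, percent) against the percent of protein-coding genes in each of 10 GC classes with a promoter summit in any library (circles) or in all 6 (grey squares), and, for each cyclin, CDK and CDKN1A gene, the percent of the 6 libraries with a promoter summit (green diamonds). CCND1 and CCND2 lie at 0 inside GC classes where 76.6% and 71.7% of genes, respectively, have a summit in some library.

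Short sequence motifs were counted on both strands from 250 bases before to 50 after each canonical start. These are matches of letters, not binding sites. A CCAAT box occurred in 35.98% of all promoters and in CCND3, CCNE2, CCNA2 and CCNB1 here. The GC box GGGCGG occurred in 61.5% of all promoters, and CCND2 alone of the 10 had none. The response element TGACGTCA was found in 2.68% of promoters and, of these genes, in CCNA2 only. The CHR letters TTTGAA, the cell cycle homology region known from mitotic genes, were in 11.5% of promoters and here in CCND2 only. Only this spelling was searched, so the count does not show that the other genes lack a CHR. The E2F letters TTTGGCGC or TTTCCCGC were in 3.09% of promoters and here in CCND1 only.

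The search was widened to all summits from 20 kb upstream of each gene to its end. The 10 regions together held 25, 19 and 22 summits in parental cells and 20, 22 and 25 in SAP30-KO1. Per 10000 summits of the library these were 6.81, 6.23 and 6.56, and 6.72, 5.41 and 7.30, with overlapping ranges. CCND2 had no summit in its 55.6 kb, a state shared by 18.9% of protein-coding genes. CDK6, the longest gene, held 11, 6 and 7 summits in parental cells and 5, 8 and 10 in SAP30-KO1, and CCND3 held 6, 7 and 6 against 6, 5 and 5. CCNA2 and CCNB1 had 1 summit in each library, the promoter one.

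CDKN1A was the only region in which the summit counts did not overlap. It held 1 summit in each parental library and 2 in each SAP30-KO1 library. Per 10000 summits the values were 0.273, 0.328 and 0.298 against 0.672, 0.492 and 0.584, a difference of 0.283 (exact permutation test, p = 0.1, the smallest possible, adjusted p = 1). Over all 16300 genes with a summit in their region, 3.85% were lower with groups apart and 4.01% were higher with groups apart, and 1 of 9 regions is the count here. The added summits were not at the same place. In SAP30-KO1 replicate 1 it lay at -11.3 kb from the canonical start, at a rank of 18.5. In replicates 2 and 3 it lay in an exon 1.78 kb past the start (chr6:36647972-36648562), at ranks of 2.73 and 0.9997, among the weakest summits of those lists. With scores of 4 or more, with lists of equal length or with 50 kb upstream, the CDKN1A counts overlapped, and the difference was -0.0343 and -0.117 under the first and the last of these.

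Summits of the 6 libraries whose windows of 250 bp on each side overlapped were merged into open sites, 30 of them in the 9 regions with a summit. By place, 9 were at promoters, 16 in introns, 2 in exons and 3 upstream. All 6 libraries shared 11 (36.7%) of the 30 sites, against 28.9% of the 56419 open sites of the genome, and 4 (13.3%) were found in a single library, against 28.5%. At 0 of the 30 sites were the groups apart, where 4.26% of all open sites were lower with groups apart and 5.86% were higher with groups apart.

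CDK6 held 13 of the 30 sites, of which 4 were found in every library and 3 in only 1. All 4 shared sites were intronic, and the groups overlapped at each. The site with the highest mean rank, 194.4 kb into the gene, ranked at 67.6, 39.1 and 35.0 in parental cells and at 74.9, 82.9 and 24.2 in SAP30-KO1 (exact permutation test, p = 0.6). The site at 26.7 kb ranked at 59.6, 60.8 and 39.8 against 62.8, 16.1 and 52.1 (exact permutation test, p = 0.7). The site at 140.7 kb ranked at 30.8, 20.6 and 70.2 against 65.0, 10.9 and 76.6 (exact permutation test, p = 0.9). At each of these 3 sites SAP30-KO1 held the lowest value and the highest. The fourth shared site, at 203.2 kb and outside the rule for naming sites, ranked at 56.6, 2.85 and 57.9 against 51.3, 2.97 and 81.2 (exact permutation test, p = 0.9). Replicate 2 was thus low in both groups.

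CCND3 had 7 sites, 2 of them in all 6 libraries. Besides the main promoter, the strongest was an intronic site at -35.2 kb from the canonical start (negative, upstream; chr6:41944312-41945150, within the longer transcripts). It ranked at 86.4, 79.2 and 86.6 in parental cells and at 61.0, 87.6 and 33.8 in SAP30-KO1. The parental values were close together and SAP30-KO1 replicate 2 exceeded them all, so the groups overlapped at a difference of -23.3 (84.1 ± 4.25 and 60.8 ± 26.9, SD, n = 3; exact permutation test, p = 0.4). Without SAP30-KO1 replicate 2 the groups were apart at this site. An exon site 5.30 kb past the canonical start ranked at 32.4, 16.7 and 34.7 against 47.3, 0 and 39.4. An intronic site at -25.5 kb was found at 0, 87.8 and 10.8 against 0, 71.6 and 0, that is, strong in replicate 2 of both groups and weak or missing elsewhere. The far promoter of CCND3, at -108.8 kb and within 1 kb of a start of TAF8, ranked at 23.3, 57.5 and 60.05 against 48.0, 0 and 28.2 (exact permutation test, p = 0.3).

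**Figure D3:**
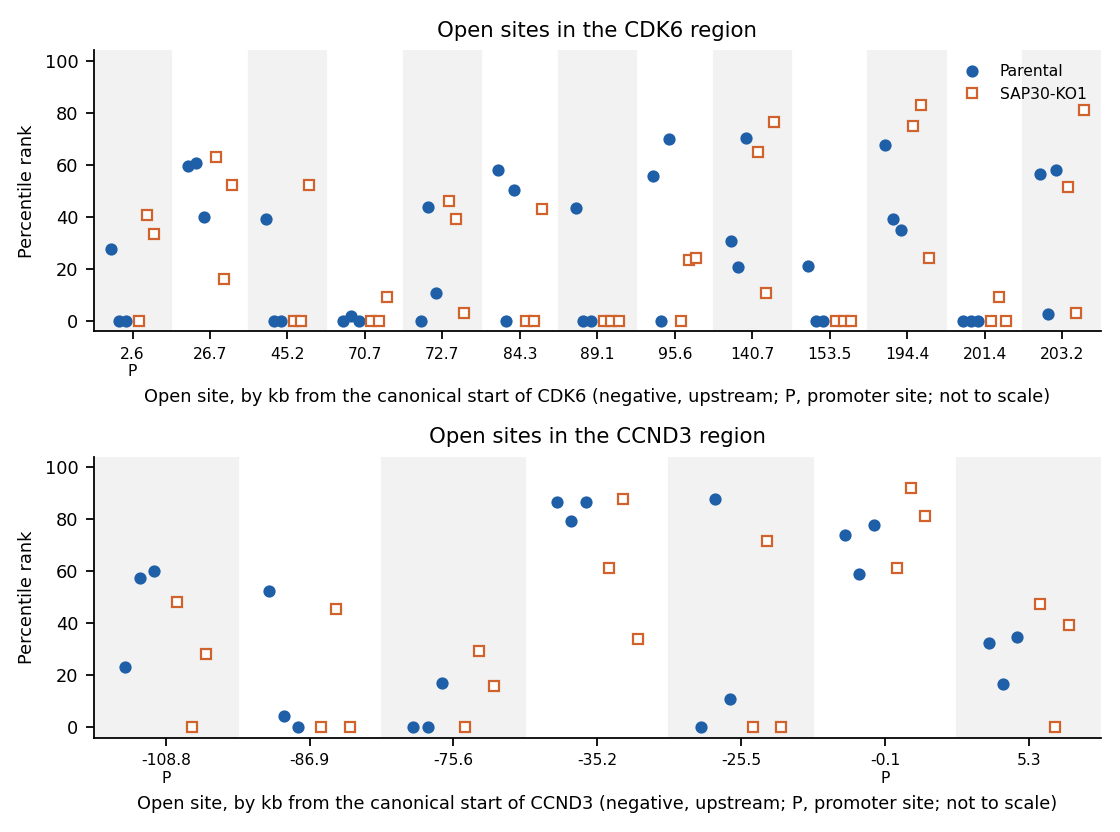
Percentile rank (vertical axes, 0 for no summit) at each open site of the CDK6 and CCND3 regions, ordered by distance from the canonical start in kb, with 1 point per library (filled circles, Parental; open squares, SAP30-KO1). The groups overlap at every site, and the CCND3 site at -35.2 kb shows the tight parental values of 79.2 to 86.6 beside a SAP30-KO1 spread of 33.8 to 87.6.

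At CDK4 the second site lay at -19.97 kb, at the starts of METTL1 and EEF1AKMT3, and so is their promoter as well. It ranked at 48.7, 0 and 38.0 in parental cells and at 68.0, 82.0 and 40.7 in SAP30-KO1. The SAP30-KO1 values were higher except that replicate 3 lay below Parental replicate 1, and the difference of 34.6 exceeded the SD of either group while the ranges overlapped (28.9 ± 25.6 and 63.5 ± 21.0, SD, n = 3; exact permutation test, p = 0.2). Parental replicate 2 lacked a summit at this site and at the CDK4 promoter alike. The groups were apart there without Parental replicate 1 or without SAP30-KO1 replicate 3.

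Sequences at open sites outside the promoters of these genes were examined next. Shown are 121 bases (GRCh37, plus strand) around the mean summits of sites whose values are given above and below. They are the CCND3 site at -35.2 kb, the CDK6 sites at 194.4 and 26.7 kb, and the site upstream of CCND1 described next. The CDK6 site at 194.4 kb lies within 1 kb of an annotated start, so it is not among the distal sites counted below. Capitals mark the letters TGANTCA, known as the AP-1 site, and GGAATG, known as the TEAD site, wherever they occur. The CDK6 site at 26.7 kb was chosen because it holds TGANTCA in these bases, whereas the one at 194.4 kb and the other 2 CDK6 sites shared by all libraries hold neither motif there.
CCND3, chr6:41944643-41944763: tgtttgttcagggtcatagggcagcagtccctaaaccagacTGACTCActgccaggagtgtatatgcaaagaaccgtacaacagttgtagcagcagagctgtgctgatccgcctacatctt
CDK6 at 194.4 kb, chr7:92271462-92271582: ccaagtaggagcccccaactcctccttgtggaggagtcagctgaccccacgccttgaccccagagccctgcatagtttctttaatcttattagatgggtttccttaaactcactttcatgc
CDK6 at 26.7 kb, chr7:92439148-92439268: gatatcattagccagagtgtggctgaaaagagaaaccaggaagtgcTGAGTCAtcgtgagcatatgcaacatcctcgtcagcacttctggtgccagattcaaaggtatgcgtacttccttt
CCND1, chr11:69451374-69451494: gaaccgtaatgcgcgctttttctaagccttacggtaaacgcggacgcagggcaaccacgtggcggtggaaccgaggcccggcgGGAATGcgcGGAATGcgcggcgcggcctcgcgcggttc
TGANTCA occurred on either strand in 54.9% of the 39774 distal open sites of the genome (over 1 kb from any start) and in 12 of the 19 distal sites of these genes (63.2%). GGAATG occurred in 36.5% and in 8 of 19 (42.1%). The CCND1 site is GC-rich and holds 2 copies of GGAATG and no AP-1 letters.

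CCND1 was set against the rest of 11q, whose ranks were lower in SAP30-KO1 as a whole. With no promoter summit in any library, CCND1 has no rank to place among the promoters of the arm. It shared that state with 381 of the 867 protein-coding genes of 11q (43.9%, itself included), so no set of genes nearest to it in pattern could be singled out. Its neighbours were alike, as MYEOV had no promoter summit and LTO1 had one in SAP30-KO1 replicate 2 alone (rank 14.1). The only summits in the 33.3 kb of the CCND1 region lay at -4.49 kb from the start (chr11:69451150-69451719), at 0, 0 and 0 in parental cells and at 31.4, 0 and 15.2 in SAP30-KO1. Both summits were in SAP30-KO1, and replicate 2, the longest list, had none (difference 15.5, exact permutation test, p = 0.4). Without SAP30-KO1 replicate 2 the groups were apart at this site.

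At that weak site the mean was higher in SAP30-KO1 with overlapping ranges, whereas the balance of the arm lay the other way. Of 1770 open sites on 11q, 32 (1.81%) were found in at least 2 SAP30-KO1 libraries and no parental one, and 172 (9.72%) showed the reverse. Off 11q the shares were 5.28% and 3.59%. The 486 genes of 11q with a promoter summit had a median difference of -10.1, with 108 (22.2%) lower with groups apart and 3 (0.617%) higher with groups apart. Summits on 11q made up 3.37% to 3.65% of the parental lists and 2.39% to 2.61% of the SAP30-KO1 lists. The lists hold no copy number, and its part in these values was not tested.

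Within 500 kb of CCND1 there were 30 open sites, with 19, 16 and 10 summits in parental cells and 10, 17 and 15 in SAP30-KO1. The number of summits thus overlapped between groups. All 5 sites present in all 6 libraries had a lower mean in SAP30-KO1, with a median difference of -27.0, against -14.7 over the 454 such sites of 11q and 0.403 elsewhere. Of these 5 sites 3 were lower with groups apart, as were 179 of the 454 on 11q (39.4%). The share was 4.26% over all 56419 open sites of the genome, an unlike set that includes sites missing from some libraries. Of the other flanking sites 2 were also lower with groups apart, at -203.9 kb (difference -41.7) and 259.5 kb (-40.5), and 0 were higher. The 3 shared sites are given by library, chosen after their values were seen. At -143.8 kb the ranks were 91.2, 90.5 and 88.4 in parental cells and 50.6, 75.2 and 63.2 in SAP30-KO1. At 226.7 kb they were 87.6, 86.8 and 78.5 against 18.5, 57.3 and 39.4. At -386.5 kb they were 83.2, 95.1 and 81.3 against 45.9, 73.3 and 74.5. For each of them the exact permutation p was 0.1, the smallest possible, and the adjusted p over all open sites was 0.988. Ranked among the summits of 11q alone, the same sites differed by -16.9, -35.7 and -11.9, in the same order. The groups overlapped at the remaining shared sites, at -220.4 and 407.2 kb. Their differences within 11q were 2.86 and -20.8, so not all 5 shared sites were lower within the arm. Another site began 23 bases past the end of CCND1, just outside the region examined, and ranked at 54.4, 54.6 and 0 in parental cells and at 22.1, 9.21 and 12.8 in SAP30-KO1, with overlapping ranges.

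**Figure D4:**
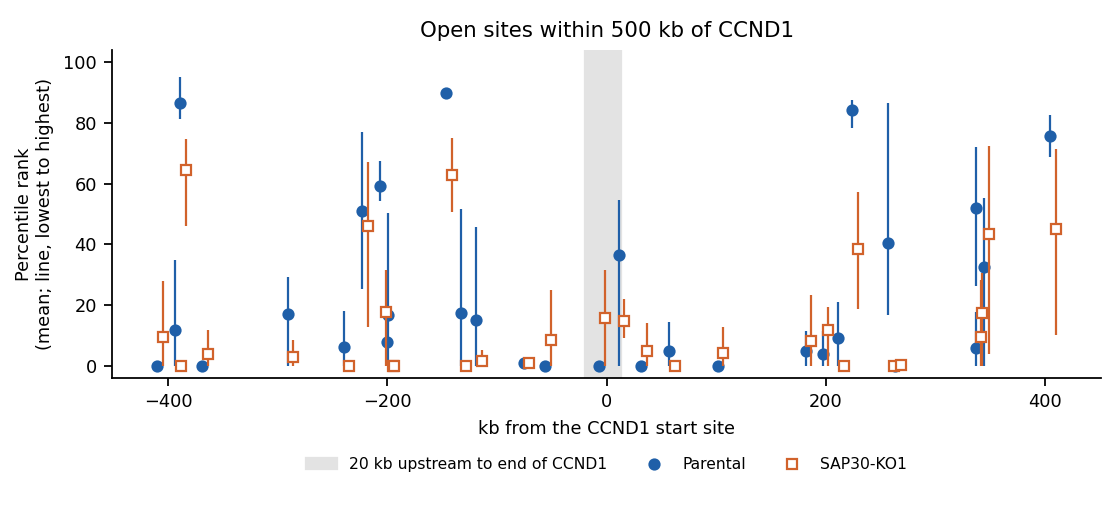
Open sites within 500 kb of CCND1 by distance from its start in kb (horizontal axis) and percentile rank (vertical axis), with the mean of each group (filled circles, Parental; open squares, SAP30-KO1), a line from its lowest to its highest library, and the groups drawn 2.5 kb to either side of the true position. The grey band is the region from 20 kb upstream to the end of CCND1, where the single site has a parental rank of 0, and the strong parental sites at -386.5, -143.8 and 226.7 kb all have lower SAP30-KO1 ranges.

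To see the cyclins and CDKs beside their pathway, 49 other cell cycle genes were examined in the same way. This list was fixed with earlier results of these data known, so its shares are a description and not a test. Of these, 43 had a promoter summit in any library and 32 in all 6. The 6 without one were the inhibitors CDKN1C, CDKN2A and CDKN2B, the factors E2F2 and E2F4, and MYBL2. Among the 43, 3 (6.98%) were lower with groups apart and 8 (18.6%) were higher with groups apart, against 4.58% and 6.01% of all tested genes, and the remaining 32 overlapped. Each of the 11 had an exact permutation p of 0.1, the smallest possible, and an adjusted p no lower than 0.944 (Benjamini-Hochberg over all tested genes). Ranked within their arms, 2 were lower and 7 higher with groups apart, as SKP2 and LIN52 then overlapped. The median difference of the 43 genes was 1.16, close to that of all genes.

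The 3 lower genes were CDC25B and CDC25A, phosphatases that activate CDKs by removing inhibitory phosphates, and SKP2. CDC25B ranked at 84.1, 80.3 and 92.0 in parental cells and at 4.10, 41.4 and 46.2 in SAP30-KO1, a difference of -54.9 with a wide gap between the groups. CDC25A ranked at 78.8, 68.1 and 70.9 against 64.8, 48.5 and 63.2 (difference -13.8). SKP2, which targets p27 for degradation, was lower by a mean of -1.71 near the top of the lists, and overlapped when ranked within its arm (-0.64). CDC25C, the third phosphatase, overlapped at a difference of -0.640.

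The higher genes were led by RBL2, which encodes p130, a relative of RB that binds E2F in quiescent cells. It ranked at 10.8, 41.4 and 38.0 in parental cells and at 73.8, 62.3 and 69.2 in SAP30-KO1, a difference of 38.3. LIN37, a member of the complex that p130 forms with E2F to repress cell cycle genes, ranked at 0, 0 and 11.7 against 24.3, 24.9 and 26.5 (difference 21.3). The other LIN and RB family genes did not share 1 direction. LIN54 (-33.0), RBL1 (-20.5) and RB1 (-8.82) had lower means in SAP30-KO1 with overlapping ranges. LIN9 also overlapped (2.70, with a summit in 2 libraries), while LIN52 was higher. CDC20, the activator of the anaphase-promoting complex, ranked at 54.4, 60.04 and 41.6 against 73.6, 85.1 and 68.5 (difference 23.7). CDK7, the kinase that activates CDKs, differed by 20.4, with the nearest values of the groups at 50.4 and 51.8. The inhibitor CDKN2C (p18) differed by 14.2 and FBXW7, which marks cyclin E for degradation, by 13.1. The other 2 with groups apart were LIN52 and CCNG1, both near the top of all 6 lists. Of the partners of the cyclins examined here, CDK1 ranked at 91.4 to 98.1 and CDK2 had a promoter summit in SAP30-KO1 replicate 2 alone (rank 2.20).

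**Figure D5:**
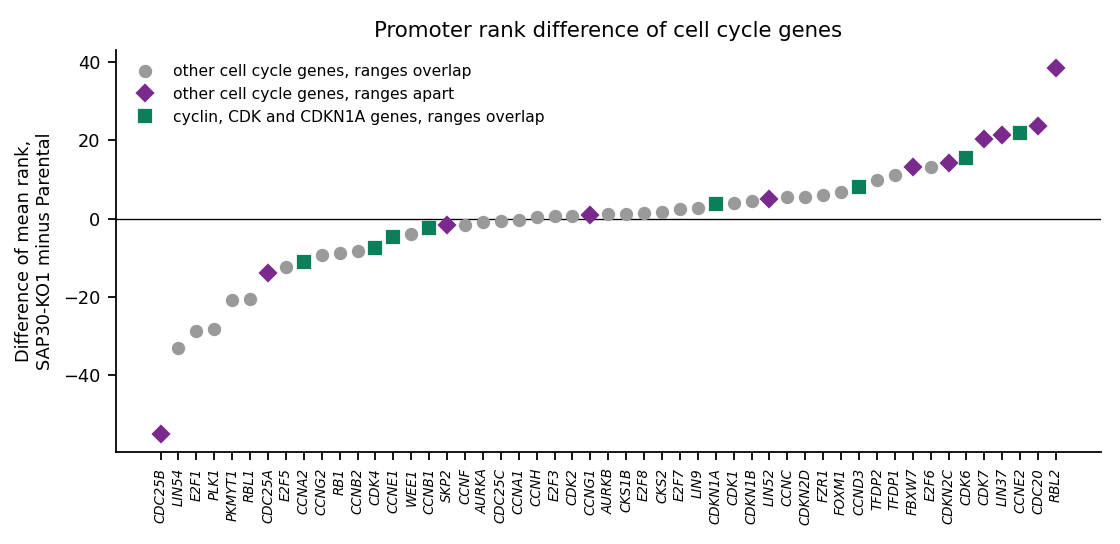
Difference of mean promoter rank, SAP30-KO1 minus Parental (vertical axis, rank points), for 8 cyclin, CDK and CDKN1A genes (green squares) and 43 other cell cycle genes (grey circles where the ranges of the groups overlap, purple diamonds where they do not), in order of the difference. The 8 green squares spread from -11.1 to 21.96 among the other genes, and CDC25B (-54.9) and RBL2 (38.3) stand at the ends.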

How the data were processed

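ATAC-seq was performed in 3 Parental and 3 SAP30-KO1 libraries of MDA-MB-231 cells. Per the labels and the study's methods, the authors trimmed reads with Trim Galore 0.4.5, aligned them to hg19 with Bowtie2 2.3.3.1, removed PCR duplicates using Picard, and ran MACS2 2.1.0 at a q value of 0.05. The deposited summit lists, 1 per library, hold positions and -log10 q values (read from the values, the lowest of which lie just above 1.30). How reads were shifted for the transposase offset is not given in the sources used here, and a shift of a few bases is far below the windows used.

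Summits were assigned to genes of GENCODE release 44 mapped to GRCh37, and summits within 250 bp on each side were merged into open sites (Python 3.11.15, NumPy 2.4.6, pandas 2.3.3, pysam 0.24.0). Canonical starts are those of the canonical transcripts of the annotation. Percentile ranks were computed with SciPy 1.17.1. Groups were compared per gene or site by an exact two-sided permutation test that enumerated 20 library assignments in NumPy, with Benjamini-Hochberg adjustment over all genes or sites. Scripts were tested on simulated data. The planned rank of the CCND1 promoter within 11q could not be computed without a summit. The genes and lists were chosen with earlier results of these data known. Named sites are the promoter sites and the 3 others with the highest mean rank in each region, and named pathway genes are up to 6 in each direction with groups apart. Alternatives were stricter scores, lists of equal length, other windows and start sites, ranks within arms, log2 scores, a replicate block and leaving out each library.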

Additional observations from a re-analysis of the deposited data

How the results depend on the processing

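Depth is unknown, so a weak or missing summit is the main limit, and with 3 libraries a group no p could fall below 0.1. Promoter ranks of the 8 genes were never apart with scores of 2 or 4 or more, lists of equal length, windows of 500 bp or 2.5 kb, protein-coding starts, arm ranks or log2 scores. Of 72 differences recomputed with all 6 libraries 2 reversed, CCNE1 to 0.592 with scores of 4 or more and CDK4 to 0.14 with log2 scores (the cause was not tested). Same-numbered libraries did not deviate together (correlations -0.0179 to -0.00320, and no library correlated best with its own number). In the replicate block, by number alone, a case was called when all 3 same-numbered differences had the same sign. Such a case is at p = 0.25, the smallest that the block allows (exact sign-flip test). These were 1 gene (CCNE2), 2 regions (CCNE2 and CDKN1A) and 2 sites (the one upstream of CDK4 and the CCNE2 promoter). The count of regions apart, 1, was 0 with scores of 4 or more, with lists of equal length and with 50 kb upstream, and the CDKN1A difference was then -0.0343 in the first and -0.117 in the last. With windows of 100 bp on each side 2 sites were apart, in CCND3 and CDK6. CCND1 had summits in 2 libraries within 5 kb of its starts, a window chosen after seeing the data.

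Without 1 library, 7 of 48 differences reversed. The lowest and highest values were -27.6 and 13.8 for CDK4, -5.58 and 16.4 for CDKN1A, -9.20 and 1.39 for CCNE1, and -5.92 and 1.16 for CCNB1. Promoters apart numbered 0 to 2 (CCNE2 and CCNA2 without Parental replicate 3, CCND3 and CDK6 without SAP30-KO1 replicate 1), regions 1 to 2 and sites 2 to 3. Fewer libraries make ranges overlap less often by construction. The 11 other cell cycle genes apart became 13 to 14 without 1 library and 8 to 15 in the remaining settings.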
